A study of Triticum aestivum with 14 samples.

Results

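Anther and Ovary, the male and the female organ of the wheat (Triticum aestivum) floret, were compared gene by gene in bulk RNA-seq libraries. The comparison used 6 of the 14 libraries of the series, chosen by their sample titles: Anther replicates 1 to 3 and Ovary replicates 1 to 3. Both organs came from untreated plants, from spikelets in the centre of the spike, taken when 21 days had passed since the terminal spikelet. Both also carried the label N50 under a cell-line tag, which is not explained. The stated design places both organs in the fertile floret, and 2 Lemma libraries of the same design shared the estimate of the spread. Whether the 3 libraries of an organ came from different plants is not stated, so p-values measure the spread between these libraries only, which may be technical. Total counts ran from 76441070 to 96159764 in the Anther libraries and from 80349973 to 103924952 in the Ovary libraries.

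An anther holds the developing pollen inside a wall whose innermost layer, the tapetum, feeds the pollen and supplies much of its outer coat. After meiosis the pollen stores sugar and starch, builds mitochondria and prepares the actin, membrane and pectin machinery with which a pollen tube will later grow at its tip. An ovary holds the ovule and its embryo sac inside a carpel wall that goes on growing by cell division and cell expansion. Floral organ identity is set by MADS-box transcription factors, of which class B genes act in stamens and lodicules and class C genes in both stamens and carpels.

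The 3 Anther libraries correlated at r = 0.9796 to 0.987 over 47362 genes on the log2(FPKM + 1) scale, where FPKM is the authors' measure of a gene's level per unit of gene length and of library size. Correlations between an Anther and an Ovary library lay between 0.3845 and 0.4251. Ovary 3 stood somewhat apart, at 0.9385 and 0.951 with Ovary 1 and Ovary 2, which correlated with each other at 0.984. Ribosomal RNA, a sign of library quality, took 4.08, 3.78 and 3.58% of the counts in Anther 1 to 3, against 1.75, 0.695 and 3.20% in Ovary 1 to 3. Its part in the results was not tested, while without Ovary 3 the counts of genes called higher and lower in Anther were 16478 (21.7%) and 16524 (21.8%), close to those with it. Fold changes below come from counts with edgeR's TMM scaling, and the log2 ratio of FPKM sits lower than this fold change by a median of 0.38 over 24480 genes, so FPKM levels and fold changes can differ in sign where both are small.

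About as many genes were higher as were lower in Anther, and the difference between the organs was wide. Of 76348 tested genes, 33222 were called, which is 43.5%: 16687 were higher in Anther (21.9%) and 16535 lower (21.7%). A gene was called at an adjusted p under 0.05 and at least a 2-fold change in edgeR's quasi-likelihood test, with Benjamini-Hochberg adjustment over all tested genes. Far changes were more often upward, with 4761 genes called at least 64-fold higher in Anther and 2612 called at least 64-fold lower, although the fitted fold of the 6517 tested genes with no count in one organ depends on the small count that edgeR adds. With limma on log2(FPKM + 1) instead, 7928 genes were called higher (10.4%) and 12290 lower (16.1%), so that the share of higher genes among those called was 39.2% in place of 50.2%. Limma on log2(FPKM + 0.1) gave 13290 higher and 21599 lower. On these FPKM scales the median log2 fold change over all tested genes was -0.13 and -0.31, against -0.03 in edgeR, so list medians near 0 depend on the scale. No gene called in edgeR was called the other way in any of the 17 alternative settings.

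**Figure D1:**
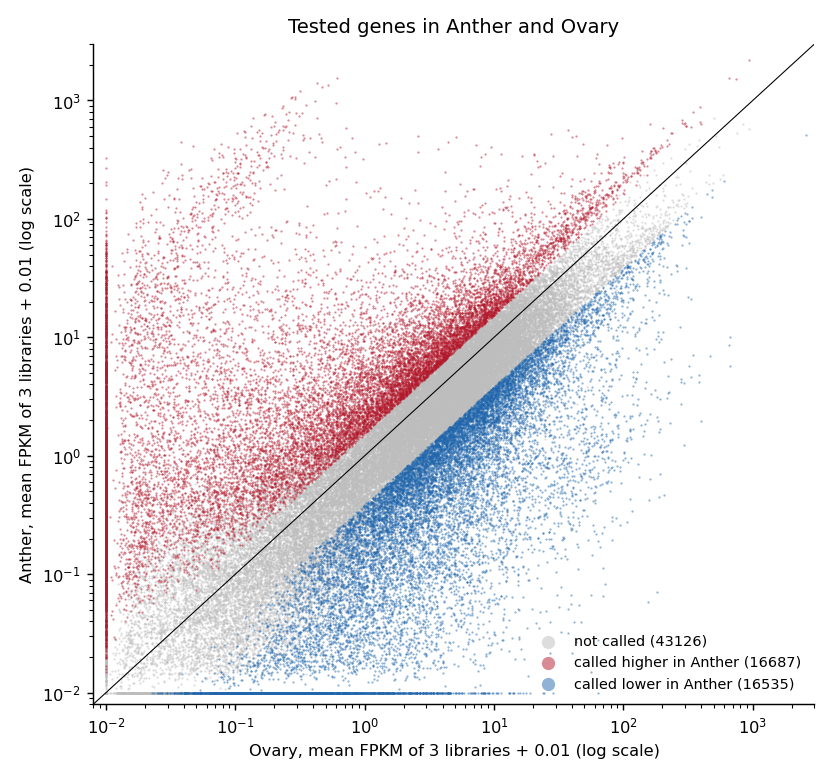
Each point is 1 of the 76348 tested genes, with its mean FPKM over 3 Anther libraries on the vertical axis and over 3 Ovary libraries on the horizontal axis, both plus 0.01 on log scales; the diagonal marks equal FPKM. Red points (16687) were called higher and blue points (16535) lower in Anther, and a band of red points at high FPKM in Anther lies below 1 FPKM in Ovary.

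The Anther transcriptome was the more concentrated of the pair. Its 100 most abundant genes held 11.4, 11.8 and 11.4% of all FPKM in Anther 1 to 3, against 7.17, 6.80 and 7.82% in Ovary 1 to 3. Genes at 100 FPKM or more numbered 848 to 880 in the Anther libraries and 658 to 761 in the Ovary libraries, while genes at 1 FPKM or more numbered 42036 to 42305 in Anther and 44595 to 44939 in Ovary. Of the 100 most abundant coding genes of Anther, 71 were under 1 FPKM in Ovary and 13 were also among the 100 most abundant of Ovary. Of the 100 most abundant coding genes of Ovary, 0 were under 1 FPKM in Anther and 59 were at 100 FPKM or more there.

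Genes seen in only 1 of the organs were counted as coding genes at 1 FPKM or more in all 3 libraries of one organ and under 0.05 FPKM in all 3 libraries of the other. Anther had 1640 such genes and Ovary had 535. Of the 1640 Anther genes, 1337 (81.5%) were also under 0.05 FPKM in both Lemma libraries, against 176 (32.9%) of the 535 Ovary genes. The Anther genes took 3.69 to 4.13% of the summed FPKM of an Anther library, and 23 of them averaged 100 FPKM or more. The Ovary genes took 0.354 to 0.420% of the summed FPKM of an Ovary library, and 0 of them averaged 100 FPKM.

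The labels of the organs were set beside a few marker genes, chosen after their values were seen, so their agreement is no test. RAFTIN 1A (TraesCS7A02G239800, chromosome 7A, 214431172 to 214432978), a tapetum protein that becomes part of the pollen coat, stood at 390, 375 and 320 FPKM in Anther 1 to 3, against 0.182, 0.0540 and 0.0262 FPKM in Ovary 1 to 3. The groups did not overlap (log2 fold change 12.30 ± 1.12 (SE), adjusted p = 5.2e-05). The gene described as a pollen-specific protein (TraesCS7D02G097700, 7D) had 13.1, 7.94 and 20.5 FPKM in Anther and 0, 0 and 0.0630 FPKM in Ovary (log2 fold change 9.78 ± 0.89, adjusted p = 1.0e-04). The gene described as a pollen allergen homolog (TraesCS1B02G225800) was at 0 in all 6 libraries.

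On the Ovary side, the KN1-type homeobox gene TraesCS1D02G075700, of the class that keeps meristem cells undifferentiated, had 0, 0.131 and 0.124 FPKM in Anther, against 12.3, 12.2 and 13.5 FPKM in Ovary (log2 fold change -6.75 ± 0.75, adjusted p = 1.5e-04). A second KN1 gene, TraesCS4B02G057900, had no count in any Anther library and 4.87, 6.03 and 5.17 FPKM in Ovary, which puts it at least 154.9-fold lower in Anther. Folds against a group with no count are bounds, set by giving that group 12 counts in all. In the Lemma libraries the KN1 genes were at 1.38 to 6.07 FPKM, so neither was seen in Ovary alone. RAFTIN 1A and both KN1 genes were thus at or near 0 in the other organ. The APETALA3-like class B gene described below did not separate the organs in this way, as it was high in both and under the 2-fold threshold.

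Of 27 MADS-box genes, all tested, 3 were called higher and 10 lower in Anther, with a median log2 fold change of -0.45. The summed FPKM of the family was 1005, 821 and 841 in Anther 1 to 3 and 1269, 1213 and 1263 in Ovary 1 to 3. The class C gene WAG-2m (TraesCS3D02G140200, 3D, 100852964 to 100860857), an AGAMOUS relative, had 88.3, 67.5 and 69.8 FPKM in Anther and 20.1, 22.9 and 22.3 FPKM in Ovary. It was 4.49-fold higher in Anther (log2 fold change 2.17 ± 0.17, adjusted p = 2.6e-05). The other genes called higher were TaAGL18 (TraesCS6D02G014600), at 37.6 ± 2.05 FPKM in Anther and 5.90 ± 0.518 FPKM in Ovary (SD, n = 3 each), and an unnamed MADS-box gene on 3A (TraesCS3A02G314300), at 83.2 ± 12.7 FPKM in Anther and 18.4 ± 0.966 FPKM in Ovary.

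Among the MADS-box genes called lower, WM27A (TraesCS1B02G273300, 1B, 480437886 to 480442016) was at 0 in the 3 Anther libraries and at 8.62, 8.09 and 8.34 FPKM in Ovary, at least 198.9-fold lower in Anther. It was also at 0 in both Lemma libraries. TaAGL31 (TraesCS5D02G118200) had 1.83, 3.78 and 2.92 FPKM in Anther and 28.99, 27.6 and 27.3 FPKM in Ovary (log2 fold change -2.92 ± 0.33, adjusted p = 1.6e-04). The MADS-box protein gene TraesCS4A02G058900 was 32.2-fold lower in Anther, at 0.811, 0.791 and 0.854 FPKM in Anther against 32.9, 31.1 and 39.9 FPKM in Ovary, and TaAGL14 (TraesCS3D02G284200) was 17.0-fold lower. WM20, WM19B, WM28A, WM4 and a pair of further MADS-box proteins on 4D and 5A were the remaining members called lower. Without Ovary 3, 9 were called lower, since WM4 (TraesCS4D02G245200) fell just short of 2-fold.

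An APETALA3-like gene of class B differed by less than 2-fold. Whether other MADS-box genes listed here are also of class B was not examined. The APETALA3-like gene TraesCS7D02G380300 (7D, 492844062 to 492850562) had 160, 131 and 142 FPKM in Anther and 129, 125 and 110 FPKM in Ovary. Every Anther library was above every Ovary library, and the gene was 1.54-fold higher in Anther (log2 fold change 0.62 ± 0.13, adjusted p = 0.0037), under the 2-fold threshold. It was at 25.5 and 23.6 FPKM in the Lemma libraries. WM14 (TraesCS1A02G264300) averaged 96.0 ± 12.9 FPKM in Anther and 124 ± 5.54 FPKM in Ovary, with a log2 fold change of 0.00 ± 0.16 on the TMM scale, and WM13 averaged 101 ± 12.9 FPKM in each organ. The vernalization gene Vrn-A1 (WM6, TraesCS5A02G391700) was not called either, at 58.5 ± 10.7 FPKM in Anther and 89.8 ± 14.4 FPKM in Ovary.

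**Figure D2:**
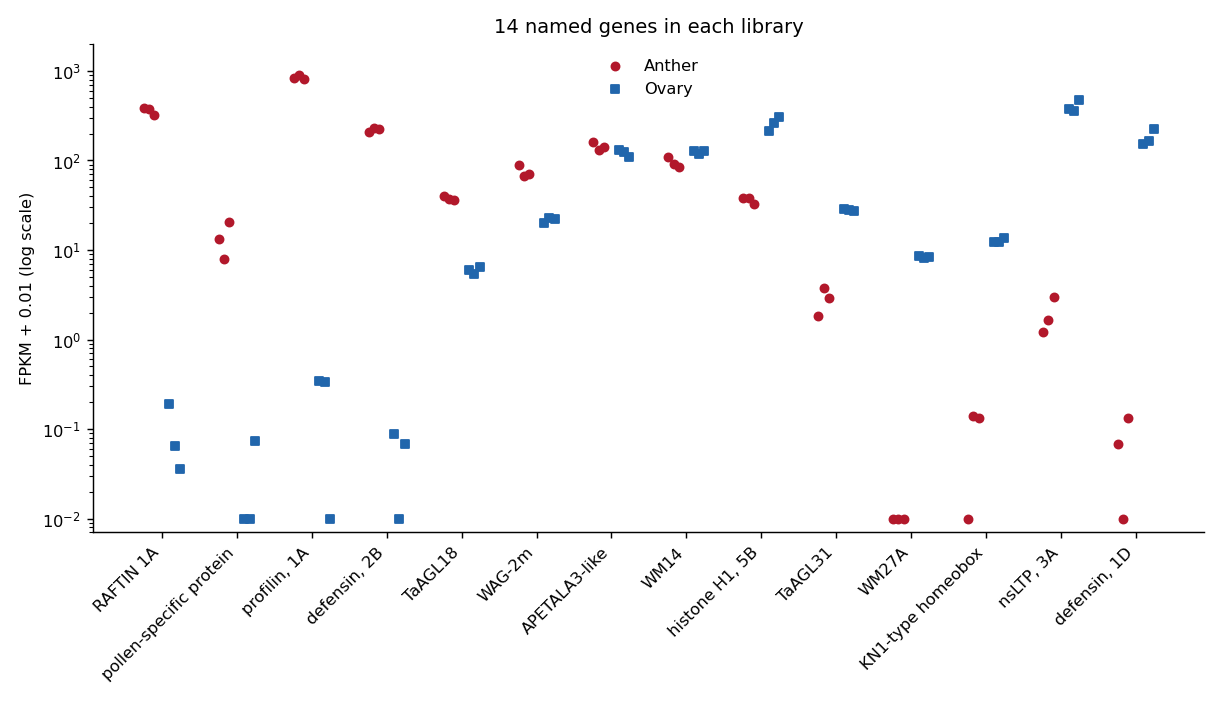
FPKM plus 0.01 on a log scale for 14 named genes, with Anther replicates 1 to 3 as red circles on the left and Ovary replicates 1 to 3 as blue squares on the right of each gene. RAFTIN 1A, the pollen-specific protein, the 1A profilin and the 2B defensin are far higher in Anther, WM27A, the KN1-type gene, the lipid-transfer protein (nsLTP) and the 1D defensin far higher in Ovary, and APETALA3-like and WM14 lie side by side.

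Genes for pollen development and for the pollen tube were called higher in Anther more often than lower. Of 145 members, 138 were tested, 51 were called higher and 13 lower, with a median log2 fold change of 0.68 and a summed FPKM of 2721 ± 60.9 in Anther and 1128 ± 40.3 in Ovary (SD, n = 3 each). TraesCS3D02G432100, annotated for differentiation of the sperm cells of pollen, had 120, 134 and 129 FPKM in Anther and 0.0271, 0 and 0 FPKM in Ovary. TraesCS2D02G411500, annotated as a water and urea channel with a part in the same process, had 19.3, 24.8 and 18.4 FPKM in Anther and no count in Ovary, at least 788-fold higher in Anther. A sucrose and proton symporter gene with an annotation for pollen germination, TraesCS4B02G287800, went the other way, at 1.62 FPKM on average in Anther and 12.3 FPKM in Ovary (log2 fold change -2.54 ± 0.31, adjusted p = 2.3e-04).

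The list for pollen wall, exine and tapetum was small, with 36 members and 30 tested, of which 10 were called higher and 3 lower (5 lower without Ovary 3). Its median log2 fold change was 0.06 and had the other sign in 3 of the 17 alternative settings. Its summed FPKM was 489, 473 and 406 in Anther 1 to 3 and 67.9, 70.6 and 70.3 in Ovary 1 to 3, and 3 genes, led by RAFTIN 1A, held 84.5% of it in Anther. Of 35 tested genes annotated as strictosidine synthase-like, a family with members that act in exine formation, 12 were called higher and 7 lower. TraesCS4B02G215300, which carries the exine annotation, had 12.3, 12.6 and 10.5 FPKM in Anther and no count in Ovary (at least 636-fold higher). TraesCS5D02G202800 of the same family had 0.266, 0.0665 and 0.416 FPKM in Anther and 33.8, 37.5 and 51.3 FPKM in Ovary.

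Profilins, small proteins that bind actin monomers and feed growing filaments, were split between the organs. All 10 profilin genes were tested, and 5 were called higher and 4 lower in Anther. TraesCS1A02G343400 (1A, 531986100 to 531986741) had 836, 912 and 822 FPKM in Anther, against 0.334, 0.327 and 0 FPKM in Ovary (log2 fold change 12.14 ± 1.05, adjusted p = 4.0e-05). Those on 1B, 3A, 3B and 3D averaged 565 to 771 FPKM in Anther and 0.123 to 0.303 FPKM in Ovary. The profilin on 7D, TraesCS7D02G101800, was at 49.4, 51.0 and 49.9 FPKM in Anther and 167, 178 and 151 FPKM in Ovary (log2 fold change -1.35 ± 0.11, adjusted p = 2.7e-05). The family's summed FPKM was 3619 ± 167 in Anther and 264 ± 18.8 in Ovary.

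Over the actin cytoskeleton as a list, 236 of 245 members were tested, 71 were called higher and 57 lower, and 46 were at least 16-fold higher and 17 at least 16-fold lower. Over all tested genes, 8.63% were called at least 16-fold higher and 6.48% at least 16-fold lower. The median log2 fold change was 0.13, with the other sign in 3 settings, while the summed FPKM was 7830 ± 309 in Anther and 2145 ± 205 in Ovary. A pair of genes annotated for actin filament depolymerization followed the Anther profilins: TraesCS2A02G227300 had 97.0, 100 and 93.4 FPKM in Anther and 0.0253, 0 and 0 FPKM in Ovary, and TraesCS2D02G235200 had 53.6 ± 3.86 FPKM in Anther and no count in Ovary (at least 1368-fold higher). The actin-annotated TraesCS2D02G148400 was lower in Anther, at 0.246, 0.399 and 0.376 FPKM against 14.4, 13.9 and 14.4 FPKM in Ovary.

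Pectin-modifying enzymes, which trim and loosen the pectin of cell walls and of pollen tubes, had genes called in both directions. Of 319 members, 232 were tested, and 83 were called higher (35.8%) and 74 lower (31.9%), against 21.9 and 21.7% of all tested genes. Of those called, 69 were at least 16-fold higher and 45 at least 16-fold lower. The summed FPKM was 5124 ± 195 in Anther and 564 ± 12.2 in Ovary, although the median log2 fold change was -0.03, with the other sign in 7 settings. A gene with pectinesterase annotation on an unplaced sequence, TraesCSU02G067500, had 58.0, 71.1 and 58.2 FPKM in Anther and no count in Ovary, at least 3639-fold higher. The pectinesterase gene TraesCS1B02G477900 had 0.0981, 0 and 0.0607 FPKM in Anther and 7.60, 11.3 and 12.4 FPKM in Ovary (log2 fold change -7.18 ± 0.68, adjusted p = 6.5e-05). Among the 57 tested genes described as pectinesterase alone, 21 were called higher and 24 lower.

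**Figure D3:**
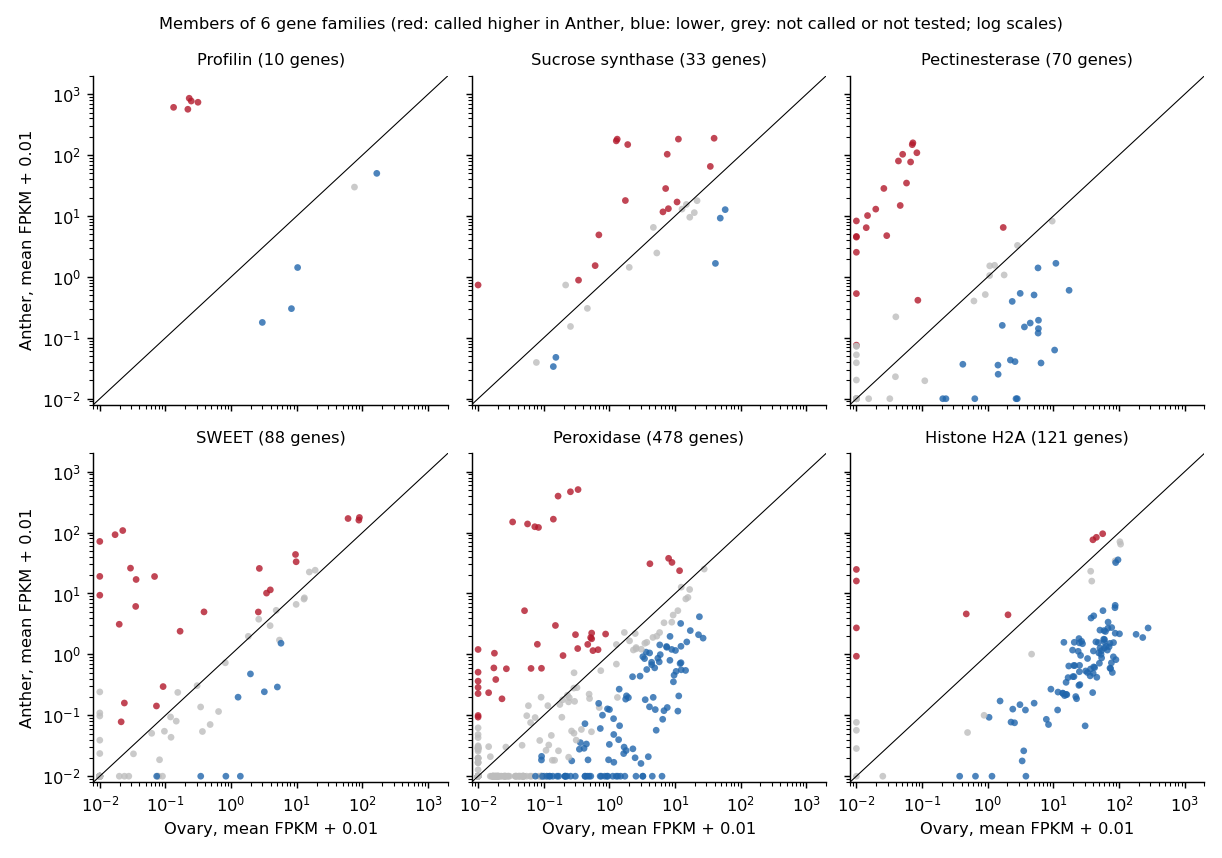
Mean FPKM plus 0.01 in Anther (vertical) against Ovary (horizontal), on log scales, for all genes of 6 families; red, called higher in Anther; blue, called lower; grey, not called or not tested. Profilins, pectinesterases and peroxidases have genes far to both sides of the diagonal beside grey ones (1 of 10, 12 of 57 and 82 of 234 tested were not called), whereas 99 of 116 tested histone H2A genes were called lower in Anther.

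Other wall families differed in direction. Xyloglucan endotransglucosylase/hydrolase genes (XTH), which cut and rejoin xyloglucan chains in growing walls, were called lower in Anther in 48 of 85 tested and higher in 11, with a median log2 fold change of -2.59 (-2.57 with genes at 0 at their bound). Their summed FPKM was 175, 213 and 256 in Anther 1 to 3 and 1537, 1464 and 751 in Ovary 1 to 3, so Ovary 3 was the lowest Ovary library and still above every Anther library. Without Ovary 3, 51 were called lower and 11 higher. Arabinogalactan and fasciclin proteins had 8 of 13 called lower and 0 higher.

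Expansins, which loosen walls without cutting them, had 9 of 33 tested called higher (27.3%) and 15 lower (45.45%), against 21.9 and 21.7% of all tested genes. Their summed FPKM was 636 ± 34.4 in Anther and 421 ± 74.4 in Ovary. Beta-expansin 2 (TraesCS1D02G211500, 1D, 297378035 to 297379410) had 126, 147 and 148 FPKM in Anther and 0, 0.0253 and 0 FPKM in Ovary, and the expansin TraesCS6B02G336500 had 0.488, 0.737 and 1.45 FPKM in Anther and 36.0, 39.7 and 26.0 FPKM in Ovary. Cellulose synthase genes had 17 of 72 called higher (23.6%), near the 21.9% of all tested genes, and 23 lower (31.9%), against 21.7%. Lignin synthesis and laccase genes had 13 of 89 called higher and 36 lower, with a median log2 fold change of -1.92 (-1.19 with bounds); limma on log2(FPKM + 1) called 3 higher and 18 lower.

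Sucrose synthase genes had a median log2 fold change of 1.04. Of 33 genes matched to sucrose synthase by description or ontology text, all tested, 16 were called higher in Anther and 5 lower. The enzyme splits sucrose into fructose and the nucleotide sugar used for starch and walls. The 22 genes described as sucrose synthase had 10 called higher and 5 lower, and summed to 645 FPKM in Anther and 280.5 FPKM in Ovary. The rest were matched by ontology text alone. The summed FPKM of all 33 was 1298, 1249 and 1175 in Anther 1 to 3 and 374, 429 and 335 in Ovary 1 to 3, and the groups did not overlap. TraesCS3D02G420300 (3D, 532688227 to 532694091), which has no description, had 183, 183 and 182 FPKM in Anther and 1.45, 1.15 and 1.31 FPKM in Ovary (log2 fold change 7.50 ± 0.18, adjusted p = 4.1e-07). TraesCS2A02G168200 was abundant in both, at 217, 191 and 159 FPKM in Anther and 41.6, 51.9 and 24.4 FPKM in Ovary. The sucrose synthase genes of 7A, 7B and 7D with the numbers TraesCS7A02G158900, TraesCS7B02G063400 and TraesCS7D02G159800 were lower in Anther, at 12.7, 9.21 and 1.66 FPKM on average against 58.0, 48.8 and 41.2 FPKM in Ovary.

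Invertases, which split sucrose into glucose and fructose, had 8 of 26 called higher in Anther (30.8%) and 9 lower (34.6%). Over all tested genes, the shares were 21.9 and 21.7%. TraesCS5B02G556600 had 31.3, 39.8 and 37.3 FPKM in Anther and no count in Ovary, at least 2817-fold higher, whereas TraesCS6D02G026500 had 1.61, 1.60 and 1.57 FPKM in Anther and 19.0, 24.0 and 36.8 FPKM in Ovary (log2 fold change -3.67 ± 0.27, adjusted p = 1.8e-05). SWEET and sucrose transporter genes had 27 of 73 called higher and 15 lower, and their summed FPKM was 1268 ± 120 in Anther and 446 ± 33.7 in Ovary. The SWEET gene TraesCS7B02G451200, of the family of sugar carriers in the plasma membrane, had 62.6, 75.1 and 76.8 FPKM in Anther and no count in Ovary (at least 3007-fold higher). The sucrose transporter genes SUT1A and SUT1D were lower in Anther, at 1.27 and 1.66 FPKM on average against 6.85 and 12.4 FPKM in Ovary, and highest in Lemma at 47.6 to 57.5 FPKM.

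Starch synthesis genes had 14 of 44 called higher (31.8%) and 16 lower (36.4%). Amylases, which degrade starch, had 17 of 43 higher (39.5%) and 9 lower (20.9%). Over all tested genes, 21.9% were called higher and 21.7% lower. The summed FPKM of starch synthesis genes was 1196 ± 48.8 in Anther and 587 ± 6.16 in Ovary, and that of amylases 1552 ± 111 in Anther and 222 ± 55.0 in Ovary. The starch synthase gene TraesCS4A02G418200 (4A, 688097145 to 688100962) had 75.6, 81.1 and 74.7 FPKM in Anther and 0.378, 0.438 and 0.286 FPKM in Ovary (log2 fold change 8.08 ± 0.21, adjusted p = 5.8e-07). TraesCS2B02G390700, another starch synthase, had 0.868, 0.969 and 1.09 FPKM in Anther and 17.5, 17.5 and 19.3 FPKM in Ovary (log2 fold change -3.82 ± 0.13, adjusted p = 9.5e-07). TraesCS2D02G220900, annotated as a beta-amylase, had 205, 158 and 139 FPKM in Anther and 1.10, 0.998 and 0.951 FPKM in Ovary.

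Genes of the trehalose branch, whose phosphorylated intermediate signals sugar status, had 16 of 33 called higher and 8 lower in Anther. The trehalose 6-phosphate phosphatase gene TraesCS2B02G430700 had 42.9, 50.6 and 51.6 FPKM in Anther and no count in Ovary, at least 2943-fold higher. The summed FPKM of the branch did not follow: it was 328 ± 24.7 in Anther and 297 ± 141 in Ovary, where Ovary 3 stood at 139 and Ovary 1 at 411. The phosphatase gene TraesCS5A02G190000 had 4.94, 7.74 and 13.0 FPKM in Anther and 75.9, 41.9 and 13.6 FPKM in Ovary (log2 fold change -1.99 ± 0.63, adjusted p = 0.026), and its call held in 12 of 17 settings.

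Genes of mitochondrial respiration were called higher in Anther far more often than lower. Of 414 members, 271 were tested, 168 (62.0%) were called higher and 5 lower, with a median log2 fold change of 1.73 (1.67 with bounds), and the summed FPKM was 14110 ± 424 in Anther and 5027 ± 47.0 in Ovary (SD, n = 3 each). With limma on log2(FPKM + 1), 100 of 268 were called higher and 0 lower. ATP synthase genes, which make ATP from the proton gradient, had 58 of 95 tested called higher and 0 lower. Genes for NADH dehydrogenase, the entry of the respiratory chain, had 30 of 60 called higher and 0 lower, and genes for cytochrome c oxidase, its end, 16 of 24 higher and 0 lower. Genes described as cytochrome c oxidase subunits 1, 2 and 3 had 6 of 8, 3 of 7 and 4 of 6 called higher. Their summed FPKM in Anther was only 4.59, 1.93 and 6.02, against 693 ± 22.2 for all cytochrome c oxidase genes. The calls of these subunit genes are thus of genes at a low level. Among members of the respiration list averaging at least 5 FPKM over the 6 libraries, 114 of 133 were called higher and 0 lower. The list holds names and ontology terms for ATP synthase without regard to the organelle, so chloroplast subunits may be among its members.

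A pair of genes annotated for the catalytic core of the mitochondrial ATP synthase was nearly absent from Ovary. TraesCS5B02G015000 (5B, 14191739 to 14194464) had 720, 826 and 738 FPKM in Anther and 0.424, 0.0457 and 0 FPKM in Ovary (log2 fold change 12.50 ± 0.98, adjusted p = 2.4e-05). TraesCS5A02G017000 had 681, 738 and 699 FPKM in Anther and 0.578, 0.267 and 0.401 FPKM in Ovary. Proton pump ATPases, which charge the plasma membrane and the vacuole, had 34 of 70 called higher and 7 lower. The plasma membrane ATPase gene TraesCS7A02G510800 had 8.28, 8.07 and 9.61 FPKM in Anther and no count in Ovary (at least 991.7-fold higher), and TraesCS5D02G013100, of the same family, 6.69, 5.17 and 5.07 FPKM in Anther and 52.4, 57.6 and 54.2 FPKM in Ovary.

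Of the 10 named genes with the largest fitted upward change, all were at 0 counts in the 3 Ovary libraries. Ranking by fitted change favours such genes, since their fitted fold depends on the small count that edgeR adds. The 3A profilin TraesCS3A02G277000, with counts in every Ovary library, was 5585-fold higher in Anther and is not among the 10. Besides the SWEET and trehalose phosphatase genes above, the 10 include the calcium-transporting ATPase gene TraesCS3A02G475500, whose product pumps calcium out of the cytosol. It had 32.5, 38.7 and 36.0 FPKM in Anther and was at least 4602-fold higher. A mechanosensitive ion channel gene (TraesCS5D02G265400), a phosphatidylinositol 4-phosphate 5-kinase gene whose product makes a signalling lipid (TraesCS4B02G133100) and a phospholipase D gene (TraesCS4D02G346700) were at 23.4, 19.2 and 18.6 FPKM on average in Anther. The others are genes for a flavin-containing monooxygenase (TraesCS3B02G176800), a patatin (TraesCS2B02G185200), a WAT1-related protein (TraesCS5A02G520400) and C-Ph1-5D (TraesCS5D02G265200), at 28.9 to 51.0 FPKM in Anther. In Lemma these 10 genes did not exceed 0.0771 FPKM.

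Among the lists for cell division, the lowest median was that of the core histones, the proteins around which new DNA is wound. Of 470 core histone genes, 452 were tested, 415 (91.8%) were called lower and 18 higher, with a median log2 fold change of -4.97 (-4.95 with bounds). The summed FPKM was 2369, 2293 and 2294 in Anther 1 to 3 and 20140, 22600 and 26060 in Ovary 1 to 3. Called lower were 99 of 116 tested histone H2A genes, 84 of 86 H2B genes, 74 of 82 H3 genes and 69 of 77 H4 genes. The H2A gene TraesCS6B02G198500 (6B, 237416280 to 237416979) had 0.0476, 0.124 and 0 FPKM in Anther and 24.6, 30.3 and 36.5 FPKM in Ovary (log2 fold change -8.72 ± 0.74, adjusted p = 3.5e-05). The linker histone gene H1 WH1A.2 (TraesCS5B02G448500) had 37.8, 37.8 and 32.2 FPKM in Anther and 212, 259 and 304 FPKM in Ovary, 5.51-fold lower in Anther.

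A few core histone genes went the other way. TraesCS6A02G038500, described as histone H3 (6A, 19167420 to 19168159), had 58.3, 54.9 and 55.2 FPKM in Anther and no count in Ovary, at least 1301-fold higher. TraesCS7A02G532800, described as histone H2A, had 27.9, 22.4 and 24.2 FPKM in Anther and no count in Ovary, at least 679.5-fold higher. In Lemma the H3 gene reached 0.108 FPKM and the H2A gene 0. Copies of core histone genes are near identical, so how the authors' counting shared reads between them is uncertain for each single gene.

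Replication, meiosis and the mitotic machinery had smaller medians. Of 54 DNA replication genes, 32 were called lower and 6 higher (median log2 fold change -1.77), and with limma on log2(FPKM + 1) 25 were called lower and 0 higher. The replication protein A gene TraesCS4B02G246900, for a subunit that coats single-stranded DNA, had 0.295, 0.188 and 0.292 FPKM in Anther and 13.1, 15.1 and 18.9 FPKM in Ovary (log2 fold change -5.52 ± 0.26, adjusted p = 2.7e-06). Another copy, TraesCS6B02G366400, was higher in Anther, at 4.86, 4.42 and 5.76 FPKM in Anther and 2.12, 2.47 and 2.36 FPKM in Ovary. Of 137 tested meiosis genes, 46 were called lower and 4 higher, with a median of -0.81. The recombinase gene described as disrupted meiotic cDNA 1 (TraesCS5B02G131900) had 0.452, 0.875 and 0.766 FPKM in Anther and 6.83, 7.72 and 7.40 FPKM in Ovary, and the gene described as Meiosis 5 (TraesCS3A02G314100) had 5.52, 14.0 and 9.52 FPKM in Anther and 178, 180 and 181 FPKM in Ovary (log2 fold change -3.84 ± 0.40, adjusted p = 1.1e-04).

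Tubulins, the units of microtubules, had 17 of 38 genes called lower and 9 higher, and kinesins, the motors that move along them, 16 of 49 lower and 3 higher. The tubulin beta chain genes of 4D and 4B, TraesCS4D02G015400 and TraesCS4B02G017100, were higher in Anther, at 35.6 ± 1.04 and 35.8 ± 0.816 FPKM in Anther and 0.339 ± 0.0897 and 0.297 ± 0.144 FPKM in Ovary. The tubulin beta-5 chain gene TraesCS1B02G320800 was 9.03, 6.65 and 7.23 FPKM in Anther and 61.6, 65.6 and 70.1 FPKM in Ovary (log2 fold change -2.73 ± 0.14, adjusted p = 3.5e-06). Cyclins and cyclin-dependent kinases had 17 of 52 called lower and 7 higher. In bulk RNA, fewer cells of a type and less RNA per cell cannot be told apart.

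Cytosolic ribosomal protein genes were lower in level, with few past the threshold. Of 94 tested, 26 were called lower (27.7%) and 5 higher (5.32%), against 21.7 and 21.9% of all tested genes. The median log2 fold change was -0.80. With limma on log2(FPKM + 1), 55 were called lower and 4 higher. Their summed FPKM was 4569, 4755 and 4878 in Anther 1 to 3 and 10080, 10590 and 12050 in Ovary 1 to 3. A pair of genes for the ribosomal protein S21 shows both directions: TraesCS4D02G167600 had 108, 101 and 104 FPKM in Anther and 371, 384 and 446 FPKM in Ovary, and TraesCS2B02G134300 had 141, 155 and 147 FPKM in Anther and 39.2, 42.1 and 45.2 FPKM in Ovary (log2 fold change 2.19 ± 0.11, adjusted p = 3.3e-06). On the broader pathway annotation for the ribosome, 160 of 1020 tested genes were called higher (15.7%) and 236 lower (23.1%). The share called lower was thus near the 21.7% of all tested genes.

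**Figure D4:**
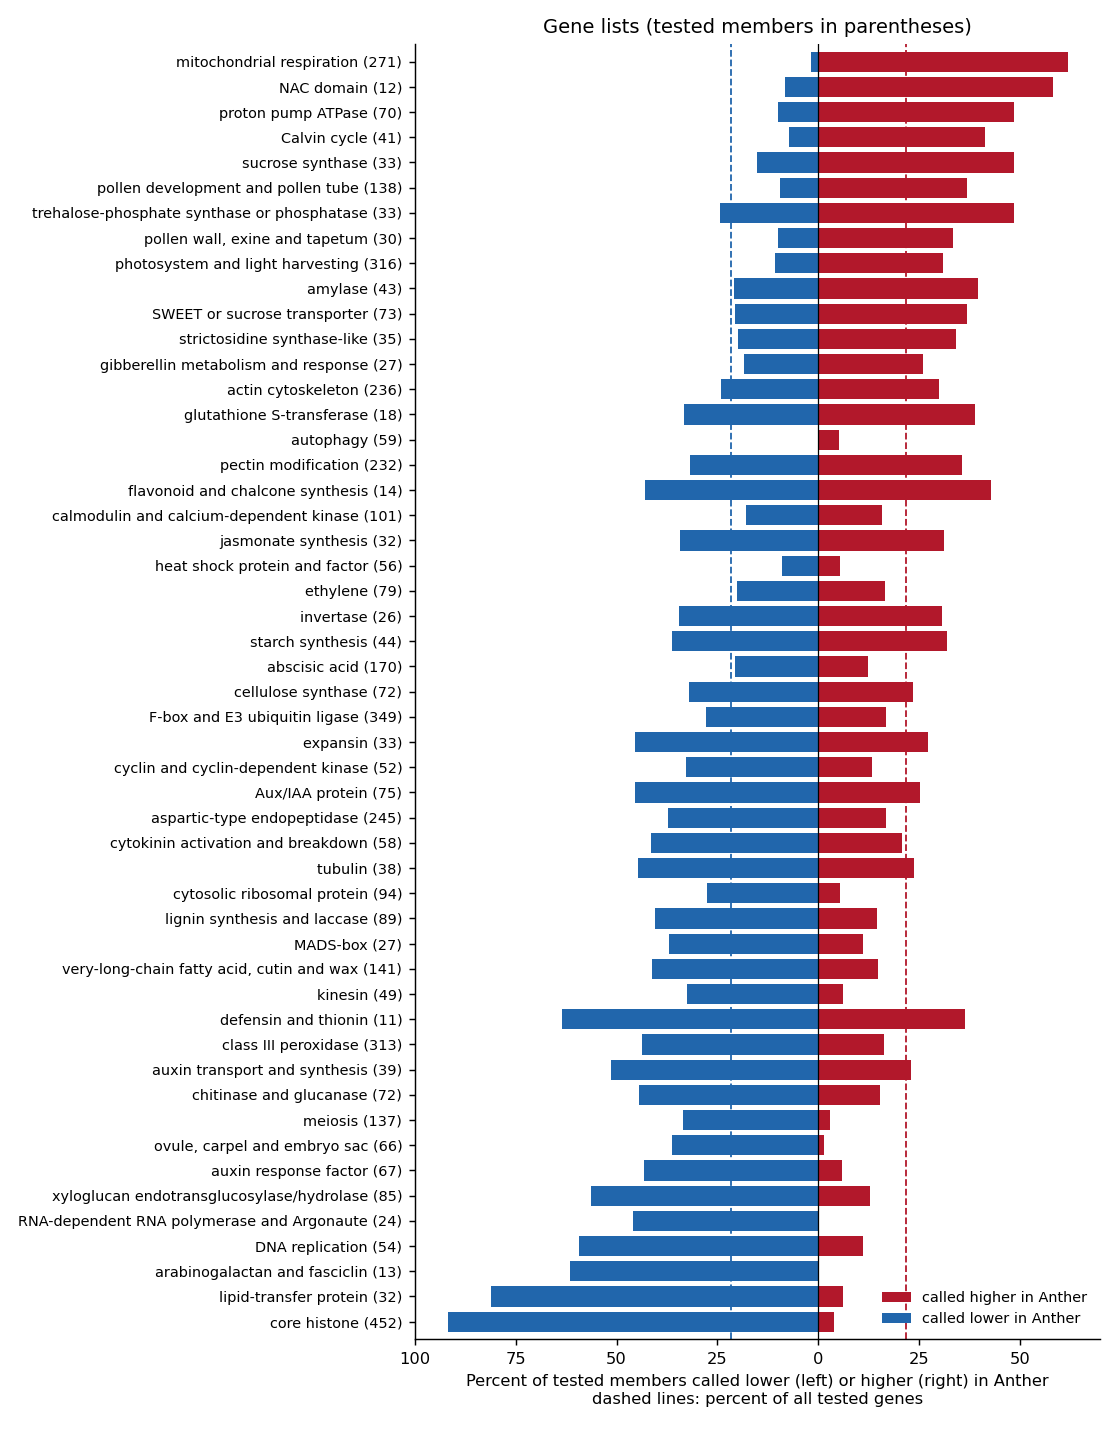
Percent of each list's tested members called lower (blue, left of 0) or higher (red, right of 0) in Anther, ordered by the difference; dashed lines mark the percent over all 76348 tested genes, 21.7% lower and 21.9% higher. Mitochondrial respiration stands at the top with 62.0% called higher and core histones at the bottom with 91.8% called lower.

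Genes annotated for the ovule, carpel or embryo sac were called lower in Anther more often than higher. Of 66 genes, all tested, 24 were called lower and 1 higher (2 higher without Ovary 3), with a median log2 fold change of -0.74, and the summed FPKM was 220 ± 6.07 in Anther and 543 ± 35.1 in Ovary. TraesCS4D02G245300, annotated for carpel, style and nectary development and for the determinacy of the floral meristem, had 0.0597, 0.107 and 0.643 FPKM in Anther and 72.1, 84.5 and 89.6 FPKM in Ovary (log2 fold change -7.77 ± 0.78, adjusted p = 8.3e-05). In Lemma it stood at 5.602 and 9.23 FPKM. TraesCS6D02G240200, a DNA-binding factor of the same list, had 0.0833, 0.0330 and 2.27 FPKM in Anther and 77.2, 74.9 and 75.1 FPKM in Ovary. RNA-dependent RNA polymerase and Argonaute genes, which make and use small RNAs, had 11 of 24 called lower and 0 higher, and Argonaute 4 (TraesCS3A02G188400) had 11.2, 9.78 and 12.2 FPKM in Anther and 73.0, 125 and 121 FPKM in Ovary.

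Genes for lipid-transfer proteins and for very-long-chain fatty acids, cutin and wax were called lower in Anther more often than higher. Of 32 tested lipid-transfer protein genes, whose products carry lipids to the cell surface, 26 were called lower and 2 higher, with a median log2 fold change of -3.37 (-3.24 with bounds). Limma called 17 lower on log2(FPKM + 1) and 7 lower after quantile normalization, where 13.9% of all genes were called higher and 15.6% lower. TraesCS3A02G344700 (3A, 594348719 to 594349676), among the 10 most abundant named genes of Ovary, had 1.21, 1.65 and 2.97 FPKM in Anther and 372, 360 and 472 FPKM in Ovary (log2 fold change -7.29 ± 0.39, adjusted p = 4.4e-06). The lipid-transfer gene TraesCS5B02G145900 was higher in Anther, at 38.6, 30.5 and 29.7 FPKM in Anther and 8.82, 7.72 and 8.96 FPKM in Ovary. Genes for very-long-chain fatty acids, cutin and wax, the coat of the epidermis, had 58 of 141 called lower and 21 higher, with a median of -1.33 (-0.47 with bounds). On the pathway annotation for fatty acid elongation, 72 of 196 tested genes were called lower and 33 higher. The pathway annotation for cutin, suberine and wax did not share this lean, with 55 of 247 called lower and 69 higher and a median of -0.04. The 3-ketoacyl-CoA synthase gene TraesCS5D02G316100 had 0.0605, 0 and 0.362 FPKM in Anther and 26.5, 30.6 and 34.0 FPKM in Ovary, while TraesCS4B02G274700 of the same family had 29.1, 28.4 and 25.5 FPKM in Anther and 0, 0 and 0.0289 FPKM in Ovary.

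Defensins, small cysteine-rich antimicrobial peptides that also take part in reproduction, were divided without exception among those tested. Of 19 defensin genes, 11 were tested, 4 were called higher and 7 lower in Anther. TraesCS2B02G062100 (2B, 29706691 to 29707410) had 207, 230 and 226 FPKM in Anther and 0.0779, 0 and 0.0577 FPKM in Ovary, and its neighbour TraesCS2B02G062000 had 139, 187 and 196 FPKM in Anther and 0.506, 0 and 0.0679 FPKM in Ovary. TraesCS1D02G052900 (1D, 33705560 to 33706322) had 0.0585, 0 and 0.123 FPKM in Anther and 153, 166 and 225 FPKM in Ovary (log2 fold change -10.91 ± 0.69, adjusted p = 8.8e-06). The 3 defensin genes of 1A at 32291317 to 32455183, among them TraesCS1A02G050700, averaged 0.102 to 0.776 FPKM in Anther and 69.0 to 107 FPKM in Ovary. One of the 4 called higher, TraesCS4D02G321100, was under 1 FPKM in every library and lost its call in 5 of 11 settings.

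Class III peroxidases, which oxidise phenolics in walls, had 137 of 313 tested called lower and 51 higher (85 and 23 with limma on log2(FPKM + 1)), with a median log2 fold change of -1.63 (-1.12 with bounds). Their summed FPKM ran the other way, at 3585 ± 80.9 in Anther and 1890 ± 138 in Ovary. TraesCS4D02G268200 (4D, 439680021 to 439681721) alone had 494, 537 and 493 FPKM in Anther and 0.513, 0.351 and 0.105 FPKM in Ovary (log2 fold change 10.95 ± 1.08, adjusted p = 7.9e-05). Chitinases and glucanases had 32 of 72 called lower and 11 higher, and the endo-beta-1,3-glucanase gene TraesCS3B02G528400 had 149, 147 and 150 FPKM in Anther and 0.233, 0.0187 and 0 FPKM in Ovary. Aspartic-type endopeptidases had 91 of 245 called lower and 41 higher, and glutathione S-transferases 6 of 18 lower and 7 higher.

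**Figure D5:**
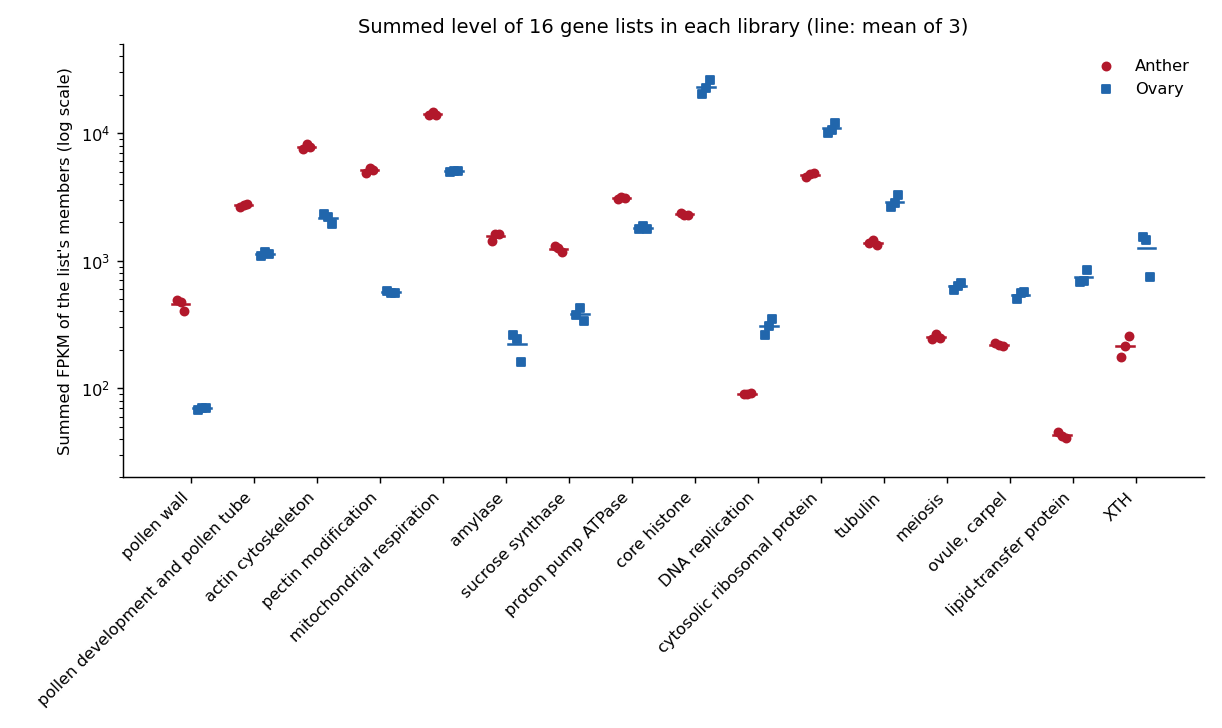
Summed FPKM of the members of 16 lists on a log scale, with Anther 1 to 3 as red circles on the left and Ovary 1 to 3 as blue squares on the right, and a line at each mean. Pectin, mitochondrial and amylase genes sit higher in every Anther library than in any Ovary library, and core histone, ribosomal, lipid-transfer and XTH genes lower.

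The auxin and cytokinin lists had more genes called lower than higher in Anther. Auxin response factors, the transcription factors of the auxin pathway, had 29 of 67 called lower and 4 higher, with a summed FPKM of 336 ± 8.99 in Anther and 770 ± 21.2 in Ovary. Aux/IAA proteins, their repressors, had 34 of 75 lower and 19 higher, and auxin transport and synthesis genes 20 of 39 lower and 9 higher. Among 29 tested auxin efflux carriers, which export auxin from cells, 8 were called higher and 15 lower. The carrier TraesCS7A02G492400 had 0.0148, 0 and 0.0225 FPKM in Anther and 11.1, 12.3 and 15.5 FPKM in Ovary (log2 fold change -9.49 ± 0.57, adjusted p = 7.4e-06), and the carrier TraesCS1A02G415400 had 6.42, 6.54 and 7.61 FPKM in Anther and no count in Ovary (at least 590-fold higher). The auxin-responsive protein gene TraesCS6B02G411000 was higher in Anther, at 31.3, 27.7 and 37.7 FPKM in Anther and 0.335, 0.195 and 0.0658 FPKM in Ovary.

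Cytokinin activation and breakdown genes had 24 of 58 called lower and 12 higher. The gene for cytokinin riboside 5'-monophosphate phosphoribohydrolase on 5B (TraesCS5B02G348300), which releases active cytokinin, had no count in Anther and 7.17, 10.7 and 13.7 FPKM in Ovary, at least 252-fold lower in Anther. A copy on 1B, TraesCS1B02G471300, was higher in Anther, at 11.8, 12.9 and 11.8 FPKM in Anther and 6.26, 6.14 and 5.31 FPKM in Ovary (log2 fold change 1.42 ± 0.13, adjusted p = 4.8e-05). Gibberellin metabolism and response genes had 7 of 27 higher (25.9%) and 5 lower (18.5%), near the 21.9 and 21.7% of all tested genes. Without Ovary 3, 8 of them were called higher and 8 lower. The gene described as gibberellin stimulated transcript (TraesCS4D02G076400) had no count in Anther and 11.3, 11.6 and 16.6 FPKM in Ovary.

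Jasmonate synthesis genes had 10 of 32 called higher and 11 lower (10 and 10 without Ovary 3). Neither direction clearly led, but at 31.25 and 34.4% both shares were above the 21.9 and 21.7% of all tested genes. The lipoxygenase genes of 5B and 5D, whose products oxidise fatty acids at the start of that pathway, were among those called lower: TraesCS5B02G382300 had 0, 0.0226 and 0.280 FPKM in Anther and 42.9, 49.2 and 41.9 FPKM in Ovary, and TraesCS5D02G388700 0.769, 0.972 and 1.01 FPKM in Anther and 92.5, 111 and 95.8 FPKM in Ovary (log2 fold change -6.38 ± 0.37, adjusted p = 6.1e-06). Ethylene genes had 13 of 79 higher and 16 lower, and abscisic acid genes 21 of 170 higher and 35 lower, so neither list passed the share of all genes in either direction. TraesCS2B02G347200, annotated as an abscisic acid binding protein, had 0.168, 0.154 and 0.167 FPKM in Anther and 25.7, 28.5 and 32.0 FPKM in Ovary. Of 12 NAC domain transcription factor genes, 7 were called higher and 1 lower, led by TraesCS5D02G059700 at 11.7, 10.9 and 10.1 FPKM in Anther and 0, 0.0396 and 0.177 FPKM in Ovary.

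Autophagy and heat shock genes had few calls. Autophagy genes, which recycle cell contents, had 3 of 59 called higher and 0 lower, and heat shock proteins and factors 3 of 56 higher and 5 lower. Calmodulin and calcium-dependent kinase genes had 16 of 101 higher and 18 lower, although TraesCS6D02G111300, annotated for calmodulin binding, had 215, 253 and 258 FPKM in Anther and 0.172, 0.0408 and 0 FPKM in Ovary. F-box and E3 ubiquitin ligase genes had 59 of 349 higher and 97 lower, a share called near that of all genes. Flavonoid and chalcone synthesis genes had 6 of 14 called each way (42.9%). Of the most abundant named genes, S-adenosylmethionine decarboxylase (TraesCS2B02G372900), an enzyme of polyamine synthesis, was high in both organs at 560, 554 and 470 FPKM in Anther and 737, 729 and 793 FPKM in Ovary (log2 fold change -0.13 ± 0.10, adjusted p = 0.28).

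Markers of green tissue were low in both organs. Photosystem and light-harvesting genes summed to 1405 ± 241 FPKM in Anther and 1060 ± 63.3 FPKM in Ovary, against 31020 and 35500 FPKM in the 2 Lemma libraries, and 98 of 316 tested were called higher in Anther and 34 lower (21 and 12 with limma on log2(FPKM + 1)). Calvin cycle genes summed to 434 ± 48.9 FPKM in Anther and 374 ± 13.6 FPKM in Ovary, against 44500 and 42440 FPKM in Lemma, with 17 of 41 called higher in Anther and 3 lower.

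Some families that shared a description were split between the organs. Of all 76348 tested genes, 6590 (8.63%) were called at least 16-fold higher and 4944 (6.48%) at least 16-fold lower in Anther. Of 395 descriptions with at least 5 tested genes, 70 (17.7%) had both a member called at least 16-fold higher and one called at least 16-fold lower in Anther. A large family can hold members of both kinds at the shares of all genes, and whether 17.7% exceeds that was not tested. Glycosyltransferases had 48 and 34 such members among 329, WAT1-related proteins 31 and 15 among 105, and protein DETOXIFICATION genes, which are transporters, 28 and 11 among 156. Potassium transporters leaned to Anther, with 15 and 2 among 75, and CASP-like proteins to Ovary, with 9 and 28 among 106. The 11 DETOXIFICATION genes lower and the 9 CASP-like genes higher were near the shares of all tested genes.

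The most abundant Anther genes were detected at a low and uneven level in the Ovary libraries. Of coding genes, 185 averaged at least 200 FPKM in Anther and under 1 FPKM in Ovary. As a percent of the Anther mean, their median level was 0.0797, 0.0185 and 0.0111% in Ovary 1 to 3, and 0.0737 and 0.00658% in the 2 Lemma libraries. Ovary 1 and the Lemma library with replicate number 1 were thus the higher ones, and what these low levels come from was not tested. Only 1 gene met the same limits the other way round.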

How the data were processed

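Per the labels, libraries were made from Trizol-extracted RNA of good integrity. The deposited table holds the authors' counts (whole numbers per gene, with no normalization) and the authors' FPKM for 100591 genes. Names or descriptions cover 11571 of 96638 protein-coding genes (12.0%). Bowtie 0.12.2 and mm8 are named in the submitters' processing notes; mm8 is a mouse build. The aligner, build and annotation used for wheat are therefore not given in any source used here, and positions are those of the deposited table.

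Deposited counts may not be single fragments: low counts pile up at 4 (1932 genes at 4 counts in Anther 1, against 927 at 3 and 583 at 5). A bound on a fold therefore uses 12 counts per group.

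Anther, Ovary and Lemma counts were fitted together in edgeR 4.0.16 (R 4.3.3): TMM scaling, filterByExpr, robust quasi-likelihood test, two-sided, with p-values adjusted by Benjamini-Hochberg and calls at 0.05 and 2-fold. DESeq2 1.42.0 and limma 3.58.1 were alternatives. The fit was also run on simulated data with few changed genes, balanced in direction. That run does not test the scaling for organs that differ this widely. SE is the log2 fold change over the square root of F. Levels are mean ± SD of FPKM.

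Members and gene lists, matched as text to names, descriptions or ontology terms, were chosen with earlier results of these data known, and some patterns were corrected after values were seen. They are described by counts and medians, with no test of a list. Single genes named are the 10 called genes with the largest fitted change in each direction, the 10 most abundant per organ, up to 2 per list and direction, and 2 undescribed ones each way. Families given in full (MADS-box, profilin, defensin, sucrose synthase), markers and single further genes were chosen after their values were seen. Libraries of a group differed beyond counting error (chi-square 16.2 to 102 per degree of freedom), so none was a repeat deposit. Anther and Ovary libraries were not treated as pairs.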

Additional observations from a re-analysis of the deposited data

How the results depend on the processing

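Called directions did not reverse: 0 genes called in edgeR were called the other way under any alternative, and 0 named genes reversed. This is a weak check, since all alternatives used the same libraries and a reversal needed opposite calls at 2-fold. The number called depended on the test and the filter. Among genes averaging at least 5 FPKM, 5486 were higher in Anther and 4629 lower; limma on log2(FPKM + 1) called 7928 higher, and limma after quantile normalization 10578 higher. All other counts lay within 1.5 times of 16687 and 16535, including DESeq2 (18042 and 16440), counts divided by 4 (15984 and 15939) and coding genes only (16449 and 16362), the last 2 chosen after seeing the data. Leaving out 1 replicate gave 15357 to 16478 higher and 15096 to 16524 lower. With the replicate block, 15074 were higher and 12947 lower. Deviations from the group mean correlated at r of -0.297, -0.0316 and -0.313 between same-numbered libraries, and none correlated best with its own number. Deviations from a mean of 3 libraries are tied to each other, so these values cannot decide whether equal numbers mark the same plant.

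Depth limits the low genes: a gene at 0 in one organ has only a bound on its fold. Annotation covers few genes, and list membership rests on text. Copies in the 3 subgenomes share sequence, and how the authors' counting divided their reads is not given.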

Other observations

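Calls were spread evenly over the subgenomes. Of the tested genes, 21.7% of the A, 21.8% of the B and 21.5% of the D subgenome were higher in Anther, and 22.2, 21.1 and 22.3% were lower. Genes on unplaced sequence differed in their split, with 30.3% of 1771 higher and 13.0% lower.

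Neighbouring genes were at times called the same way in long runs. There were 14 runs of 8 or more neighbouring tested coding genes, 2 higher and 12 lower in Anther. On 3A, 14 neighbouring genes with no description, from 2137062 to 6085439, were all higher in Anther, with a summed mean of 243.7 FPKM in Anther and 0 FPKM in Ovary. On 7D, 11 genes from 538139330 to 538910535, of which 7 are XTH genes, were all lower, with 3.21 FPKM in Anther and 252 FPKM in Ovary. On 6A, 8 genes with no description, from 598179875 to 598576193, summed to 28.4 FPKM in Anther and 1982 FPKM in Ovary. Several of the other runs hold histone genes, such as 12 genes on 6B from 28255902 to 29068506, of which 5 are described as histone H2A, at 16.4 FPKM in Anther and 542 FPKM in Ovary. Neighbours that are near-identical copies can share reads, and this was not tested.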
